A study of Mus musculus with 9 samples.

Results

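The genes described here are 9 markers of B lymphocytes and of the antibody-secreting plasma cells that B cells become: Cd79a, Cd79b, Ms4a1, Blk, Cr2, Fcer2a, Pou2af1, Mzb1 and Jchain. They were taken by name. Every probe set (a group of short probes that together read 1 transcript) whose only annotated gene symbol was one of these names was used, which gave 11 probe sets out of 45037, for 9 genes out of 18193. Of the 11 probe sets, 10 passed a filter on dim signal that 27022 probe sets passed. The eleventh, the second probe set of Fcer2a, was too dim to be tested.

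RNA came from homogenized whole right lung of inbred mice of 3 strains, BL6 (C57/BL6 in some labels), FVB/N and SV129. Each strain had 2 arrays from mice held for 4 weeks in hypobaric hypoxia at 50 kPa and 1 array from mice held for 4 weeks at 85 kPa, the ambient pressure at a high-altitude laboratory, called normoxic here. All mice, the normoxic ones included, were thus below sea-level pressure, and no genotype other than strain was given. Whether each array stands for its own animal is not in the labels, so p-values reflect only array-to-array spread, which may be technical.

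B cells sense antigen through a membrane-bound antibody, usually of the IgM class, that signals through the paired chains CD79a and CD79b. A minority of activated B cells become plasma cells, which secrete antibody in bulk. In mucosal tissue such as the airways most of that antibody is IgA, whose heavy chain is encoded by Igha, and the joining chain encoded by Jchain links IgA or IgM units so that epithelium can carry them to the surface. Jchain and Mzb1, a chaperone of antibody assembly in the endoplasmic reticulum, are used as plasma cell markers. Ms4a1 (CD20), Blk (a Src-family kinase), Cr2 (a complement receptor), Fcer2a (CD23, the low-affinity IgE receptor) and Pou2af1 (a coactivator that works with octamer-binding factors) mark B cells, Pou2af1 also plasma cells.

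The sequence just upstream of the start site is shown for the genes on which the strain comparison turned, Jchain and Fcer2a, and for Cd79a, whose upstream region is a textbook target of B cell transcription factors. RefSeq's promoter table on GRCm38.p6 held 5 of the 9 members (Jchain, Cd79a, Pou2af1, Cr2 and Fcer2a, the last with 3 start sites). 4 short motifs were searched for on both strands of the 250 bases before each start: the octamer ATGCAAAT, the ETS core GAGGAA, a palindromic EBF1 half-site pair and the E-box CAGGTG. The lines below run 5′ to 3′ on the strand of the gene, and capitals mark a match on either strand. The regions are chr5:88527898-88528147 (minus strand) for Jchain, chr7:24897247-24897496 (plus strand) for Cd79a and chr8:3690862-3691111 (minus strand) for one of the Fcer2a starts.
Jchain: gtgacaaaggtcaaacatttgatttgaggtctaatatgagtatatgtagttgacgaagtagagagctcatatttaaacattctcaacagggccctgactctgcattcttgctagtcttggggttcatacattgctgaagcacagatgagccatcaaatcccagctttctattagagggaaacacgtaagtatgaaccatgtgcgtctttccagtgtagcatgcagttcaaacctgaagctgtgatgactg
Cd79a: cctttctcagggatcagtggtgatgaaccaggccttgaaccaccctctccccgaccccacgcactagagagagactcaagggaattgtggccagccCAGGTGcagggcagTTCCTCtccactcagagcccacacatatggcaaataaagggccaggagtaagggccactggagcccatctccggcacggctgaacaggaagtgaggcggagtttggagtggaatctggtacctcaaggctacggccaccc
Fcer2a: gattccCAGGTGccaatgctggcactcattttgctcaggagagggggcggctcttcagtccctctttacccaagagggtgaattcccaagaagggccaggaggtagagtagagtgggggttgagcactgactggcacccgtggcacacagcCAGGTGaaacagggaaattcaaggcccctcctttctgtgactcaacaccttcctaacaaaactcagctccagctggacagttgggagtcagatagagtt
The Cd79a window held the E-box at bases -154 to -149 and the ETS core, on the opposite strand, at bases -140 to -135. The Fcer2a window held the E-box at bases -244 to -239 and again at bases -99 to -94, and the windows of the other 2 Fcer2a starts held no match. No match to these motifs was in the Jchain or Pou2af1 window, and the Cr2 window held the E-box on the opposite strand. Such matches are common: among 32851 promoter windows of this length, 17.2% held the E-box, 23.3% the ETS core, 1.6% the octamer and 0.779% the EBF1 pair.

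Libraries that stand apart come before the results. Markers of kidney (20 genes) averaged a log2 level of 12.13 on hypoxic BL6 array 2 and of 13.10 on the FVB/N normoxic array, while the other 7 arrays ran from 6.28 to 6.87. On the latter array 6 brown fat and fast muscle markers also averaged 11.52, where the rest gave 7.06 to 8.02. That array was the lowest of the 9 for 4 of the 10 tested member probe sets and for 25.3% of all tested probe sets. On every array the 8 lung epithelial markers were bright, averaging 13.18 to 13.79. Many results that rest on these 2 kidney-marker arrays are given with and without them, and the others with them only. With both left out FVB/N keeps only its hypoxic arrays. The pressure difference over strains then comes from BL6 and SV129 alone, and FVB/N is set against the other strains through it. The part of those transcripts in the results was not tested.

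Each level below is a quantile-normalized log2 intensity with 16 added before the logarithm, so the lowest possible level is 4. Levels of different probe sets are not comparable, because probes bind with unequal strength. A difference was called where limma's Benjamini-Hochberg adjusted p over all 27022 probe sets was below 0.05. In a homogenate, fewer cells of a type and less RNA per cell cannot be told apart.

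**Figure D1:**
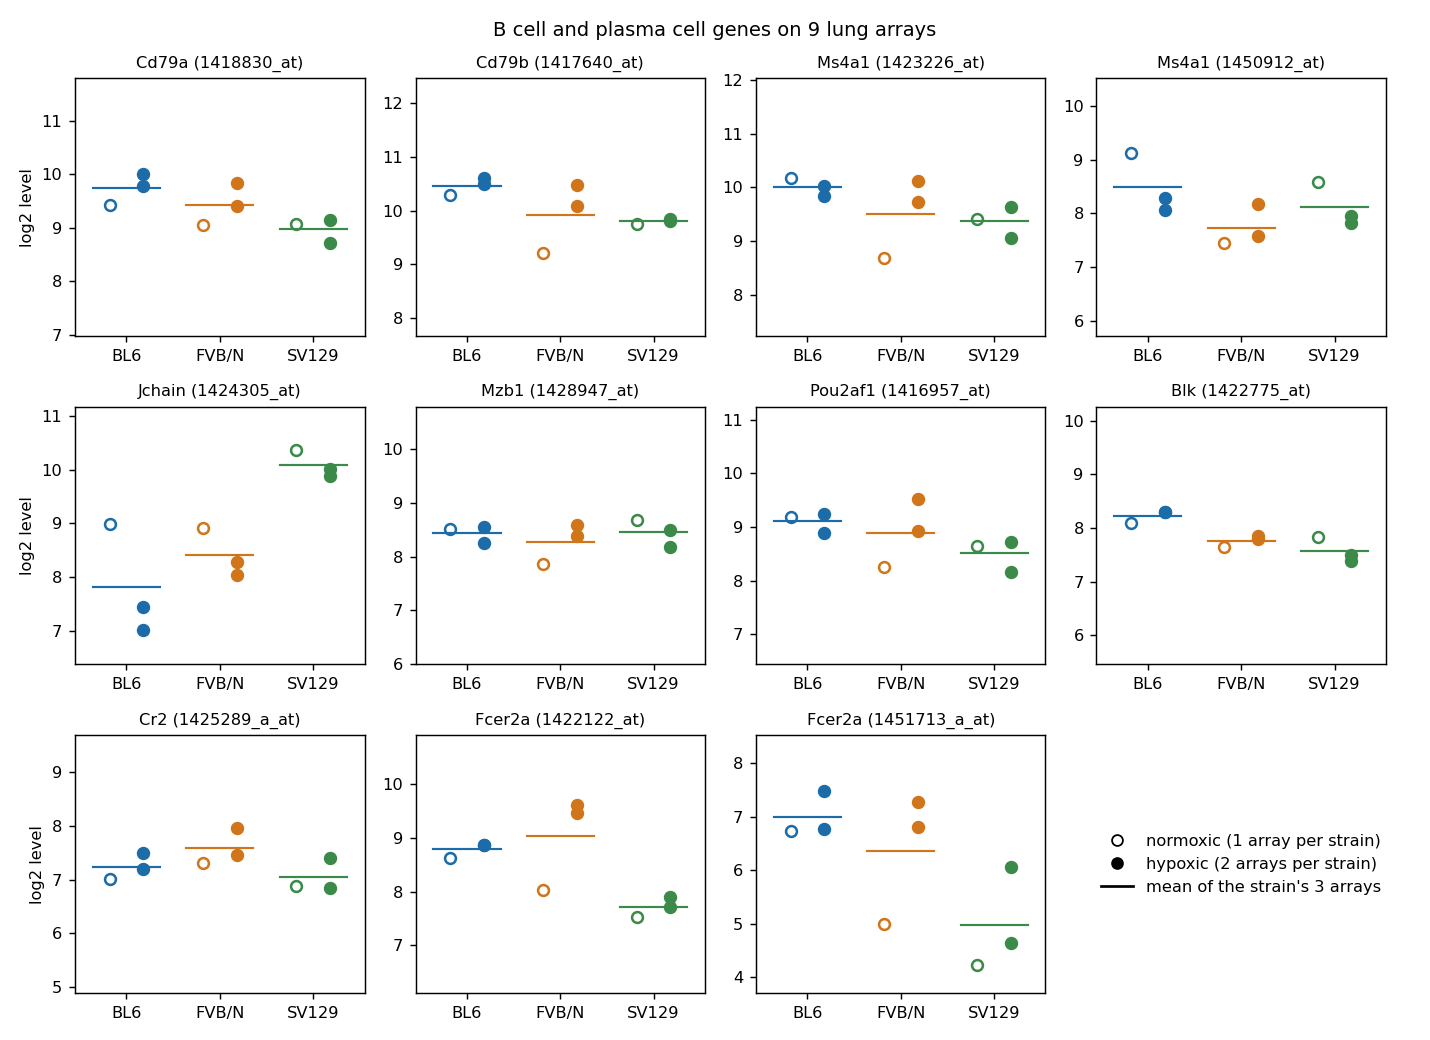
Log2 level (vertical axis, a range of its own in each panel) of all 11 member probe sets on the 9 arrays, by strain; open circles are normoxic arrays (1 per strain), filled circles hypoxic arrays (2 per strain) and lines the means of 3 arrays. All 3 SV129 arrays lie above the other 6 for Jchain, from 9.88 to 10.37, and below them for Fcer2a 1422122_at, from 7.53 to 7.91.

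The strain comparison asked which of these transcripts differed between the lungs of the 3 strains once pressure was taken into account. Jchain was highest in SV129 lung. Its levels on the SV129 arrays were 10.01 and 9.88 (hypoxic) and 10.37 (normoxic). The BL6 arrays gave 7.45 and 7.01 (hypoxic) and 9.0 (normoxic), and the FVB/N arrays 8.03 and 8.28 (hypoxic) and 8.91 (normoxic). Every SV129 array was above every array of the other strains, a pattern that 4.13% of all tested probe sets shared. Strain means were 10.09 ± 0.255 (SD, n = 3) in SV129, 8.41 ± 0.453 in FVB/N and 7.82 ± 1.04 in BL6. BL6 was lower than SV129 by 4.82-fold (log2 difference -2.27, SE 0.282, 95% interval -2.90 to -1.63, adjusted p = 0.00405). FVB/N was lower than SV129 by 3.20-fold (log2 difference -1.68, SE 0.282, adjusted p = 0.0148). Between BL6 and FVB/N, neighbours in this order, the difference of -0.59 (95% interval -1.23 to 0.05, adjusted p = 0.471) did not pass.

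Jchain was the single member called between BL6 and SV129, 1 of 10 probe sets against 2.51% of all probe sets in either direction and 1.16% called lower in BL6. Jchain and Fcer2a were the 2 of 10 called between FVB/N and SV129, against 2.89% of all in either direction and 1.06% called higher in FVB/N. At an unadjusted p below 0.05 that comparison held 3 of 10, against 16.3% of all. None of the 10 was called between BL6 and FVB/N by limma, against 2.07% of all, although 3 had an unadjusted p below 0.05, against 11.9% of all. With the kidney-marker arrays left out, Jchain stayed lower in BL6 than in SV129 (-2.27, adjusted p = 0.0146), and its difference of -1.57 between FVB/N and SV129 no longer passed (adjusted p = 0.0664). That second call was also lost when the hypoxic FVB/N array 2 (-1.65, adjusted p = 0.0625), the hypoxic SV129 array 2 (-1.54, adjusted p = 0.068) or the hypoxic SV129 array 5 (-1.61, adjusted p = 0.0629) was left out.

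The IgA heavy chain, the antibody chain to which the joining chain is most often linked in mucosa, showed the strain order of Jchain. On the probe set 1421653_a_at, Igha read 12.51 on both hypoxic SV129 arrays and 12.39 on the normoxic one. It read 9.84, 10.88 and 10.46 on the hypoxic FVB/N arrays 2 and 6 and the normoxic FVB/N array, and 8.83, 9.57 and 10.58 on the hypoxic BL6 arrays 2 and 5 and the normoxic BL6 array. The SV129 arrays thus stood above all others, as they did for Jchain and for 4.13% of all tested probe sets. Igha was 7.02-fold lower in BL6 than in SV129 (log2 difference -2.81, SE 0.374, adjusted p = 0.00553) and 4.22-fold lower in FVB/N than in SV129 (-2.08, SE 0.374, adjusted p = 0.0208).

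The other Igha probe sets, 1425763_x_at and 1429381_x_at, gave BL6 minus SV129 differences of -2.59 (adjusted p = 0.00289) and -1.95 (adjusted p = 0.00827). For FVB/N minus SV129 they gave -2.05 (adjusted p = 0.00769) and -1.19 (adjusted p = 0.0631), so the last did not pass. Suffixes such as _x and _s mark probe sets that can bind related transcripts, and antibody constant regions resemble each other, so the exact chain read by them is uncertain. On the probe set 1421653_a_at the lower level in FVB/N lost its call without the hypoxic FVB/N array 2 (-1.86, adjusted p = 0.0823), without the hypoxic SV129 array 2 (-1.97, adjusted p = 0.0909) or array 5 (-1.97, adjusted p = 0.081), or with normoxic FVB/N left out (-1.89, adjusted p = 0.051). With the kidney-marker arrays left out, Igha on this probe set remained lower in BL6 (-2.44, adjusted p = 0.0115) and in FVB/N (-1.97, adjusted p = 0.0293).

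Antibody genes as a whole did not follow Igha. Of 45 immunoglobulin probe sets with 1 gene symbol, 19 passed the dimness filter, for 10 of 21 genes. Of these 19, the 3 Igha probe sets were lower in BL6 than in SV129, 2 of the 3 were lower in FVB/N than in SV129, and none was called in the other comparisons. Of all probe sets 2.51% were called between BL6 and SV129 and 2.89% between FVB/N and SV129, in either direction. The median BL6 minus SV129 difference over the 19 was -0.24, beside -0.03 over all probe sets. The 6 tested probe sets of Ighm, which encodes the IgM heavy chain of naive B cells, differed in sign between BL6 and SV129. On its brightest, 1427329_a_at, Ighm read 11.43, 11.43 and 11.22 on the BL6 arrays (hypoxic 2, hypoxic 5, normoxic) and 10.54, 10.64 and 10.67 on the SV129 arrays. Its FVB/N values were 11.19 and 11.55 (hypoxic) and 10.48 (normoxic), the last below the SV129 range. The BL6 minus SV129 difference of 0.75 (SE 0.211, adjusted p = 0.121) did not pass, nor did that of 0.70 on 1427351_s_at (adjusted p = 0.146). The other 4 probe sets of Ighm, all dimmer, were below 0 and did not pass: -0.34 on 1427870_x_at (adjusted p = 0.597), -0.24 on 1425247_a_at (adjusted p = 0.801), -0.56 on 1452535_at (adjusted p = 0.41) and -0.87 on 1427756_x_at (adjusted p = 0.33). No direction can therefore be given for Ighm between these strains.

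**Figure D2:**
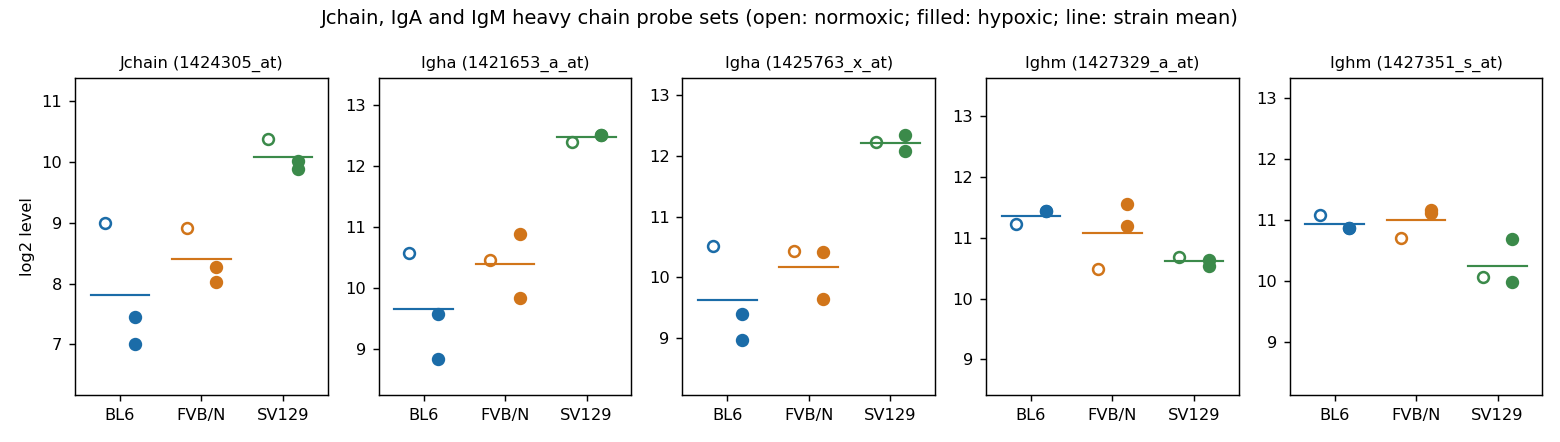
Log2 level (vertical axis, its range set per panel) of Jchain, of Igha on 2 of its 3 probe sets and of Ighm on the brightest 2 of its 6 tested probe sets, on the 9 arrays by strain; open circles are normoxic arrays, filled circles hypoxic arrays and lines strain means. Jchain and Igha are highest on the 3 SV129 arrays, whereas Ighm 1427329_a_at reads 10.54 to 10.67 there and 11.22 to 11.43 on the BL6 arrays; the 4 dimmer Ighm probe sets, not drawn, differed from SV129 with the opposite sign.

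Fcer2a, whose product CD23 is a hallmark of mature follicular B cells, was lowest in SV129 lung. On 1422122_at the SV129 arrays read 7.71 and 7.91 (hypoxic) and 7.53 (normoxic). The BL6 arrays read 8.87 and 8.87 (hypoxic) and 8.62 (normoxic), and the FVB/N arrays 9.47 and 9.62 (hypoxic) and 8.03 (normoxic). All SV129 arrays were below the other 6, as for 3.3% of all tested probe sets. Strain means were 9.04 ± 0.882 (SD, n = 3) in FVB/N, 8.79 ± 0.143 in BL6 and 7.72 ± 0.191 in SV129. FVB/N was 2.5-fold above SV129 (log2 difference 1.32, SE 0.278, 95% interval 0.70 to 1.95, adjusted p = 0.0399).

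Markers of other leukocytes also differed in this comparison, not all in the same direction. Of 19 tested T and NK cell markers 17 were higher in value in FVB/N than in SV129, with a median of 0.53, and Nkg7 and Prf1 were called. Their mean level was 7.80 to 8.66 on the FVB/N arrays and 7.50 to 7.99 on the SV129 arrays. All 8 tested neutrophil markers (of 10 measured) were higher in value in FVB/N, with a median of 1.44 and 2 called, and their mean level was 8.79 to 9.77 there and 7.23 to 8.72 in SV129. The 12 macrophage and dendritic cell markers went mostly the other way: 9 were lower in value in FVB/N and 3 higher, with a median of -0.42. Among them 3 were called lower and 1 called higher. Of all probe sets 47.1% were above 0 in this comparison, with a median of -0.03, and 2.89% were called in either direction. The part of these cells in the Fcer2a difference was not tested.

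The Fcer2a difference of 1.07 between BL6 and SV129 (95% interval 0.44 to 1.70, adjusted p = 0.0908) did not pass, and BL6 minus FVB/N was -0.25 (95% interval -0.88 to 0.38, adjusted p = 0.822). With the kidney-marker arrays left out Fcer2a passed against SV129 in both strains, at 1.08 for BL6 (adjusted p = 0.0367) and 1.74 for FVB/N (adjusted p = 0.0059). FVB/N then kept only its hypoxic arrays (9.47 and 9.62) and lost its lower normoxic one (8.03). Its pressure correction came from BL6 and SV129, so the 1.74 is not balanced over pressure. The FVB/N call was lost without any single one of 7 arrays (the 6 hypoxic ones and the normoxic SV129 array), with adjusted p from 0.0546 to 0.146 and differences of 1.13 to 1.53. The dim second probe set, 1451713_a_at, read 4.23, 4.64 and 6.06 on the SV129 arrays, where 4 is the floor. It read 5.00, 6.81 and 7.27 on the FVB/N arrays and 6.73, 6.76 and 7.48 on the BL6 arrays, so its order of BL6 and SV129 was the same.

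The antigen receptor chains and their kinase had their highest strain mean in BL6 and their lowest in SV129, without a called difference. Cd79a read 9.78, 10.01 and 9.43 on the BL6 arrays (hypoxic 2, hypoxic 5, normoxic), 9.40, 9.84 and 9.06 on the FVB/N arrays and 9.15, 8.72 and 9.07 on the SV129 arrays. BL6 minus SV129 was 0.76 for Cd79a (95% interval 0.26 to 1.27, adjusted p = 0.135). Its lowest BL6 value was above its highest SV129 value, a pattern whose share over all probe sets is not given here. Cd79b read 10.49, 10.61 and 10.29 in BL6, 10.08, 10.48 and 9.22 in FVB/N and 9.85, 9.81 and 9.75 in SV129. Its BL6 minus SV129 difference was 0.66 (95% interval 0.15 to 1.17, adjusted p = 0.197), and it passed with the single normoxic FVB/N array left out (0.66, adjusted p = 0.0463).

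Blk, a tyrosine kinase that phosphorylates the receptor chains, read 8.30, 8.29 and 8.10 on the BL6 arrays and at most 7.85 elsewhere. All 3 BL6 arrays lay above the other 6, as for 2.69% of all tested probe sets. The Blk differences were 0.66 from SV129 (95% interval 0.21 to 1.11, adjusted p = 0.142) and 0.47 from FVB/N (95% interval 0.02 to 0.91, adjusted p = 0.389). Neither passed.

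Ms4a1, the CD20 gene, read 8.68 to 10.18 over the 9 arrays on 1423226_at, with BL6 minus SV129 at 0.65 (95% interval -0.08 to 1.37, adjusted p = 0.372). Its second probe set, 1450912_at, gave 0.37 for that comparison (adjusted p = 0.605). For FVB/N minus SV129 the Ms4a1 probe sets differed in sign, 0.14 and -0.39, and neither passed. Pou2af1 read 8.16 to 9.51, with BL6 minus SV129 at 0.59 (95% interval -0.09 to 1.28, adjusted p = 0.385). Cr2 read 6.85 to 7.97 and was, in value, highest in FVB/N (FVB/N minus SV129 0.54, adjusted p = 0.307).

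Mzb1 did not share the pattern of Jchain, the other plasma cell marker. Its levels ran from 7.86 to 8.68, the narrowest range of the members, and BL6 minus SV129 was -0.02 (95% interval -0.56 to 0.53, adjusted p = 0.984). Over the 9 genes, the BL6 minus SV129 difference was above 0 for 7, with a median of 0.65, beside -0.02 over all genes. At an unadjusted p below 0.05 this comparison held 5 of the 10 probe sets, beside 15.9% of all probe sets.

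**Figure D3:**
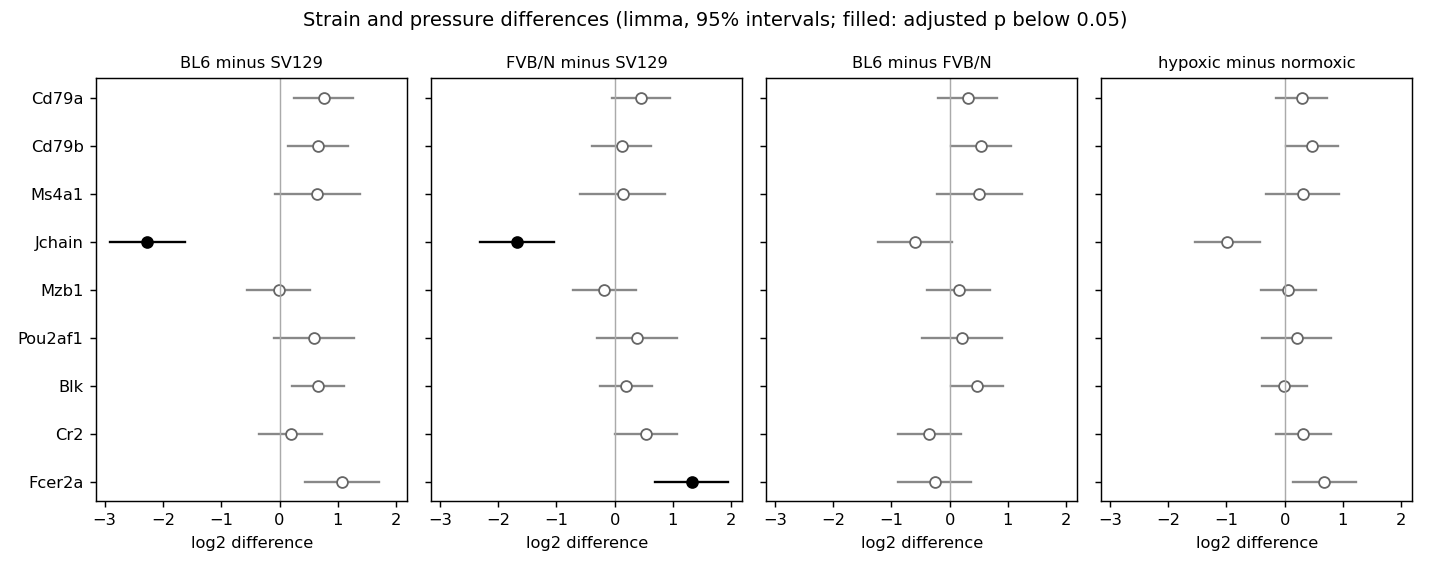
Log2 differences (horizontal axis) of the brightest probe set of each of the 9 genes, with 95% intervals, for the 3 strain comparisons and for hypoxic minus normoxic arrays over strains; filled points passed an adjusted p of 0.05 in limma. The filled points are Jchain at -2.27 and -1.68 and Fcer2a at 1.32, all against SV129.

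The 7 genes other than Jchain and Mzb1 were grouped after their values were seen. Their 21 pairwise correlations across the arrays were all above 0, from 0.0529 to 0.933 with a median of 0.691. Jchain correlated with each of the 7 below 0, from -0.853 to -0.493. Mzb1 correlated with each of the 7 above 0, from 0.0472 to 0.691 with a median of 0.236, so the sign does not set it apart from them. These are descriptions over n = 9 arrays that share strain and pressure groups, and they carry no test. The mean level of the 7 genes was 8.98 to 9.22 on the BL6 arrays and 8.33 to 8.51 on the SV129 arrays. On the FVB/N arrays it was 8.99 and 9.34 under hypoxia and 8.32 under normoxia.

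Genes with a like pattern were sought by the root mean square difference of centred log2 levels over the 9 arrays. Nearest to the mean of all 9 members were Ipo7 (0.0722), Septin6 (0.0814), Taf8 (0.0876), Mapk9 (0.0915), Rmc1 (0.0939), Aida (0.0942), Calhm2 (0.0983) and Zfp207 (0.101), where the median gene of 12886 stood at 0.371. Jchain itself stood 1.23 from it and Fcer2a 0.567. A further search, added after these values were seen, used the 7 genes without Jchain and Mzb1. Of 12886 genes Ighm, read on 1427329_a_at, was the nearest to their mean (0.0658), followed by Emb (0.0824), against a median of 0.479. The Ighm probe sets differed in sign between BL6 and SV129, as given above. For Jchain alone Nfkbiz (0.412), Armcx4 (0.480) and Igha (0.483) were nearest, against a median of 1.15, and for Fcer2a alone Prf1 (0.256), the perforin gene of cytotoxic lymphocytes, against 0.779.

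**Figure D4:**
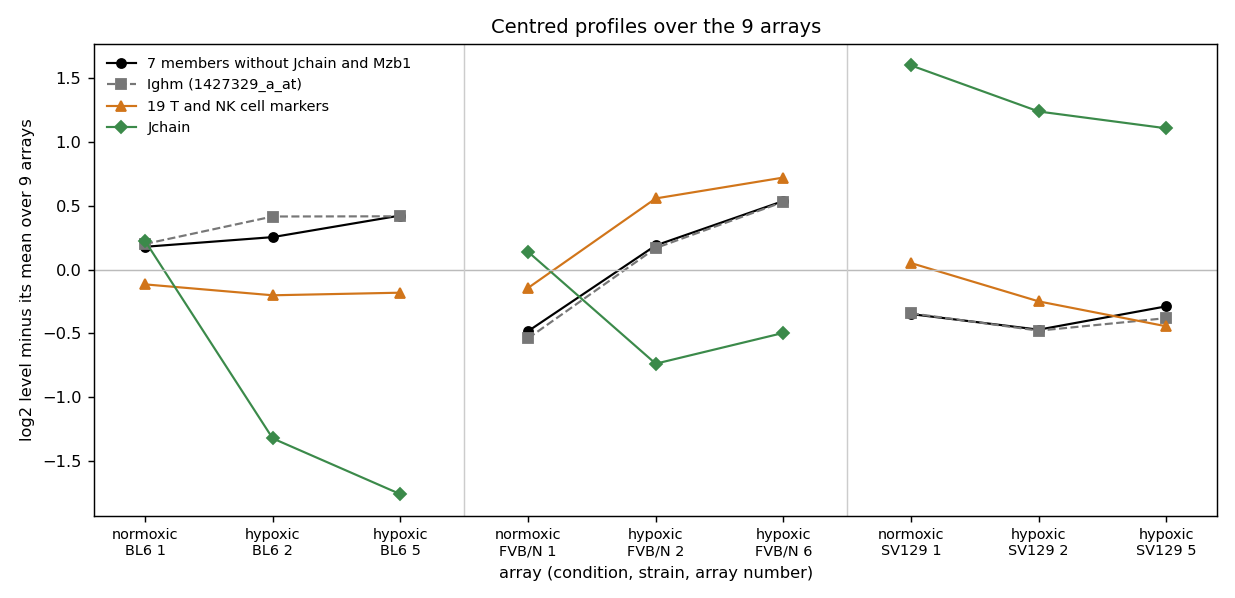
Log2 level minus its mean over the 9 arrays (vertical axis) for the mean of 7 members without Jchain and Mzb1, for Ighm 1427329_a_at, for the mean of 19 T and NK cell markers and for Jchain, array by array within each strain (lines join arrays of a strain as a guide only). Ighm lies along the 7-gene mean (root mean square difference 0.0658), while Jchain is high on the SV129 arrays where both are low.

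The pressure comparison asked which members differed between hypoxic and normoxic lung over the strains. None of the 10 probe sets was called by limma, against 3.76% of all probe sets, and 3 had an unadjusted p below 0.05, against 22.2% of all. Jchain had the largest difference. It averaged 8.44 ± 1.24 (SD, n = 6) on the hypoxic arrays and 9.43 ± 0.820 (n = 3) on the normoxic ones. With strain as a term the difference was -0.98 (SE 0.245, 95% interval -1.53 to -0.43, adjusted p = 0.0606). All 6 hypoxic arrays were below the normoxic array of their strain, as for 8.77% of all probe sets.

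Fcer2a and Cd79b ran the other way in value, at 0.68 (95% interval 0.14 to 1.23, adjusted p = 0.141) and 0.47 (95% interval 0.03 to 0.91, adjusted p = 0.203). For both, all 6 hypoxic arrays were above the normoxic array of their strain, as for 14.5% of all probe sets. With the kidney-marker arrays left out, pressure was compared in BL6 and SV129 alone, since FVB/N had no normoxic array. The differences were then 0.27 for Fcer2a and 0.18 for Cd79b, while Jchain was at -1.10 (adjusted p = 0.172). The remaining 7 probe sets ranged from -0.41 for Ms4a1 1450912_at to 0.32 for Cr2, and the 2 Ms4a1 probe sets differed in sign. The median over the 9 genes was 0.29, beside 0.03 over all genes.

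The effect of pressure in each strain, and whether it differed between strains, was read from 2 hypoxic arrays and 1 normoxic array per strain, with the lone normoxic array assumed to vary like the others. In FVB/N lung, Fcer2a and Cd79b were called higher under hypoxia, 2 of 10 probe sets against 6.8% of all in either direction and 2.95% called higher. At an unadjusted p below 0.05 there were 5 of 10, against 26.1% of all. Fcer2a was at 9.47 and 9.62 under hypoxia and 8.03 under normoxia, a difference of 1.52 (SE 0.264, adjusted p = 0.0285). Cd79b was at 10.08 and 10.48 under hypoxia and 9.22 under normoxia, a difference of 1.06 (SE 0.249, adjusted p = 0.0487). Ms4a1 1423226_at (9.72 and 10.13 against 8.68, difference 1.25, adjusted p = 0.0603) and Pou2af1 (0.95, adjusted p = 0.157) did not pass. Jchain was lower in value at -0.76 (adjusted p = 0.157). The median over the 9 genes was 0.64, beside 0.13 over all genes.

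All of these FVB/N differences share 1 normoxic array, the one with high kidney, brown fat and muscle markers, and without it none can be estimated. Markers of some other cell types moved with them, though not of all. Of 19 tested T and NK cell markers (of 20 measured), 18 were above 0 for hypoxia in FVB/N, with a median of 0.81 and 2 called higher, and their mean level was 8.50 and 8.66 under hypoxia and 7.80 under normoxia. Of 9 lung endothelial markers 8 were above 0 and 3 were called higher, with a median of 1.02. The 8 tested neutrophil markers were split, 4 above 0 and 4 below, with a median of 0.03, 3 called lower and 1 called higher. Among 12 macrophage and dendritic cell markers 9 were above 0, with a median of 0.09 and 1 called lower. Of all probe sets 60.6% were above 0 in this comparison, with a median of 0.17. Of them 2.95% were called higher and 6.8% in either direction. The part of these in the rise of Fcer2a and Cd79b was not tested. Both calls were also lost without either hypoxic FVB/N array: Fcer2a had an adjusted p of 0.146 without array 2 and 0.141 without array 6, and Cd79b 0.146 and 0.187. The Cd79b call was lost too without the hypoxic BL6 array 2 (1.07, adjusted p = 0.0875) or array 5 (1.07, adjusted p = 0.0855). Ms4a1 1423226_at passed without either hypoxic SV129 array (1.25, adjusted p = 0.0288 without array 2; 1.24, adjusted p = 0.0293 without array 5).

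In BL6 lung none of the 10 was called, against 0.0148% of all probe sets, with 2 at an unadjusted p below 0.05 against 12.5% of all. Jchain read 7.45 and 7.01 under hypoxia and 9.0 under normoxia, a difference of -1.77 (SE 0.294, 95% interval -2.45 to -1.08, adjusted p = 0.0961) that did not pass. The 3 Igha probe sets gave -1.38, -1.34 and -1.31, and none of them passed (adjusted p of 0.197 to 0.286). Ms4a1 1450912_at was at -0.96 (adjusted p = 0.312) and its brighter partner at -0.25. All these BL6 differences use hypoxic BL6 array 2, which gave the 7.45 of Jchain and is one of the arrays with high kidney markers. Its part in them was not tested.

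In SV129 lung none of the 10 was called, against 0% of all probe sets, and none had an unadjusted p below 0.05, against 7.58% of all. Jchain was at -0.43 (95% interval -1.11 to 0.26) and Fcer2a at 0.28 (95% interval -0.33 to 0.90). The test of a difference between strains in the response called 0 of 10, against 0% of all. At an unadjusted p below 0.05 it held 4 of 10 (12.3% of all), the smallest being that of Fcer2a (adjusted p = 0.279, limma's F test), followed by Ms4a1 1423226_at, Jchain and Ms4a1 1450912_at. A difference in response between the strains was therefore not shown for any member.

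**Figure D5:**
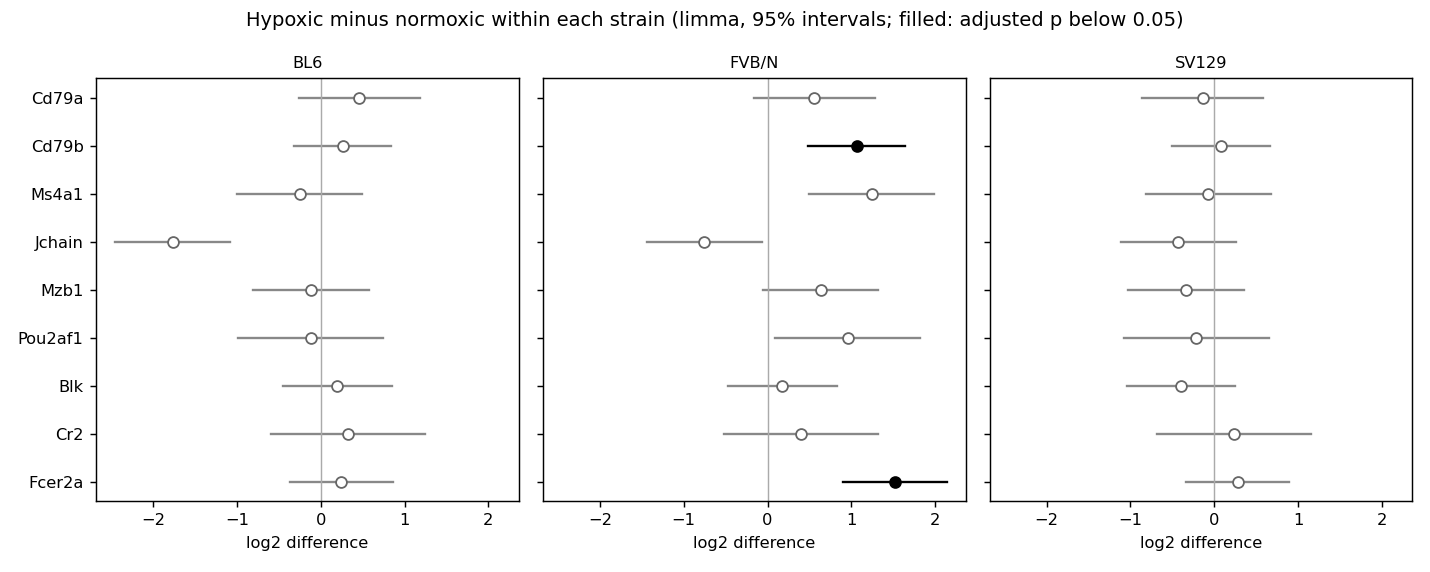
Hypoxic minus normoxic log2 difference (horizontal axis) of the brightest probe set of each of the 9 genes within each strain, with 95% intervals from limma; filled points passed an adjusted p of 0.05. The filled points are Cd79b at 1.06 and Fcer2a at 1.52, both in FVB/N, and Jchain lies at -1.77 in BL6, -0.76 in FVB/N and -0.43 in SV129.

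Other genes of the B lineage were read from lists grouped by function. Of 18 B cell surface genes none was called by limma for hypoxia (4 at an unadjusted p below 0.05, against 22.2% of all probe sets) or between BL6 and SV129 (5 at that level, against 15.9% of all), although 16 of 18 were above 0 in the latter, with a median of 0.26 beside -0.02 over all genes. Ly86, a partner of the toll-like receptor homologue CD180, was higher in BL6 than in FVB/N (0.90, adjusted p = 0.0248), a call lost with the kidney-marker arrays left out (0.70, adjusted p = 0.21) and without any of 6 single arrays (adjusted p of 0.0556 to 0.141; it held without either hypoxic SV129 array or normoxic FVB/N). Ly86 was 1 of 18 called between BL6 and FVB/N, against 2.07% of all probe sets in either direction. Cd40, the costimulatory receptor through which T cells help B cells, rose under hypoxia in FVB/N (1.35, adjusted p = 0.0331). It was 1 of 18 called there, against 6.8% of all probe sets in either direction. Cd40 read 9.75 and 10.02 against 8.53 on the normoxic array, the one with high kidney, brown fat and muscle markers.

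Of 13 B cell signalling genes 1 differed by strain. Of all probe sets 2.07% were called between BL6 and FVB/N and 2.89% between FVB/N and SV129. Pik3ap1, the adaptor BCAP that brings phosphoinositide 3-kinase to the receptor complex, was higher in FVB/N. It read 9.40, 9.76 and 9.25 there, 7.62, 7.76 and 7.72 on the BL6 arrays and 7.47, 8.22 and 7.92 on the SV129 arrays. All 3 FVB/N arrays lay above the other 6, as for 1.73% of all tested probe sets. The differences were -1.77 for BL6 minus FVB/N (adjusted p = 0.00488) and 1.60 for FVB/N minus SV129 (adjusted p = 0.00764). With the mean of all its probe sets in place of the brightest, BL6 minus FVB/N was -0.48 (adjusted p = 0.532), so the difference rests on 1 probe set. Inpp5d, the phosphatase SHIP, was higher under hypoxia in FVB/N (2.30-fold, adjusted p = 0.0466). Of 13 tested B lineage transcription factors, 1 was called in any comparison: Foxp1 rose under hypoxia in FVB/N (1.07, adjusted p = 0.0326). In that comparison 6.8% of all probe sets were called in either direction.

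Of 19 plasma cell and secretory pathway genes, 3 fell under hypoxia over the strains and none rose, with a median of -0.13. Of all probe sets 3.76% were called in either direction and 1.82% called lower. Ell2, an elongation factor that favours the secreted form of antibody transcripts, read 9.64 to 10.11 on the hypoxic arrays and 10.54 to 10.57 on the normoxic ones. Its difference was -0.70 (SE 0.132, adjusted p = 0.0284). Each hypoxic array was below the normoxic array of its strain, as for 8.77% of all probe sets. Hsp90b1, an endoplasmic reticulum chaperone, fell by 0.68 (log2 difference -0.68, adjusted p = 0.0443). Tent5c, a poly(A) polymerase that stabilizes antibody transcripts, fell by 0.87 (log2 difference -0.87, adjusted p = 0.0456). Ell2 and Hsp90b1 are also active in other secretory cells of the lung. With the kidney-marker arrays left out, pressure was again compared in BL6 and SV129 alone. The values were then -0.64 for Ell2 (adjusted p = 0.15), -0.87 for Hsp90b1 (adjusted p = 0.05) and -0.96 for Tent5c (adjusted p = 0.0956). Each call was also lost without 7 of the 9 single arrays. The exceptions were the hypoxic SV129 arrays for Ell2 (adjusted p up to 0.128 without the others), hypoxic FVB/N array 6 and normoxic FVB/N for Hsp90b1 (up to 0.183), and hypoxic FVB/N array 2 and normoxic FVB/N for Tent5c (up to 0.187).

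Within FVB/N, Irf4, a transcription factor of plasma cell differentiation, rose under hypoxia (2.12, adjusted p = 0.0276). Its normoxic value was 4.66, close to the floor of 4. Sdc1, which encodes CD138 and is also expressed by epithelium, rose (0.87, adjusted p = 0.0339), and Pigr, the epithelial receptor that carries IgA across the airway lining, fell (-1.62, adjusted p = 0.0274). All 3 rest on the same normoxic FVB/N array. They were 3 of 19 tested genes called there, against 6.8% of all probe sets in either direction. Between FVB/N and SV129, 1 of the 19 was called, against 2.89% of all probe sets. Sdc1 was also lower in FVB/N than in SV129 (-1.06, adjusted p = 0.00971; -0.87 and adjusted p = 0.0205 with the kidney-marker arrays left out; -1.04 and adjusted p = 0.0676 without normoxic SV129).

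Of 9 tested genes of B cell homing and survival, 1 was called for hypoxia over the strains, against 3.76% of all probe sets in either direction. This was Cxcl12, a chemokine that holds plasma cells in their niches, which rose. It read 12.25 to 12.79 on the hypoxic arrays and 11.38, 11.98 and 11.83 on the normoxic BL6, FVB/N and SV129 arrays. Each hypoxic array was above the normoxic array of its strain, as for 14.5% of all probe sets. The difference was 0.78 (SE 0.172, adjusted p = 0.0445). It was 0.94 with the kidney-marker arrays left out (adjusted p = 0.0436), when pressure was compared in BL6 and SV129 alone. The call was lost without any other single array than the normoxic FVB/N one, with differences of 0.51 to 0.83 and adjusted p of 0.0609 to 0.168. Il6, a cytokine that drives B cells towards antibody secretion, read 8.74 and 7.37 (hypoxic) and 7.37 (normoxic) on the SV129 arrays and 5.07 to 6.15 on the other 6. Its mean of 6.38 over the 9 arrays passed the dimness filter (above 6.13) only through the SV129 arrays, since its mean over the other 6 was 5.66. Its values are therefore given as a description and no test is drawn on. Ltb, a lymphotoxin chain that organizes lymphoid tissue, was higher under hypoxia in FVB/N (1.07, adjusted p = 0.0367). It was 1 of 9 called there, against 6.8% of all probe sets in either direction. Like the calls of Cd40, Inpp5d, Foxp1, Irf4, Sdc1 and Pigr under hypoxia in FVB/N, that of Ltb was lost without either hypoxic FVB/N array (adjusted p of 0.137 to 0.202 over these 7 genes). Those of Inpp5d, Sdc1 and Ltb were lost also without either hypoxic BL6 array (adjusted p of 0.0555 to 0.0691).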

How the data were processed

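Target prepared from total RNA of 9 whole-lung samples was hybridised to Affymetrix arrays, per the labels' protocols. The authors deposited 1 linear intensity per probe set and array. The values show that each array had been scaled to a common trimmed mean of 500; the software behind them is not given in these sources. Another 12 arrays of the series were not analysed here.

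Groups came from the sample titles. The 64 controls among 45101 probe sets were left out, log2(intensity + 16) was quantile normalized, and the dimmest 40% by mean were dropped, leaving 27022. Fold changes refer to that scale, which makes those of dim probe sets too small. Gene names came from the platform annotation. The number of arrays limits the precision, and no detection calls or scan dates were used.

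limma 3.58.1 in R 4.3.3 (intensity trend) fitted an additive strain-plus-condition model to the 9 arrays (residual degrees of freedom 5), and 6 groups for effects within strains and their interaction (residual degrees of freedom 3). Adjusted p-values are Benjamini-Hochberg over all probe sets. The members and lists were chosen with earlier results of these data known. Besides the members, genes of the related lists were named where they passed the threshold in a comparison (at most 4 per list and comparison), and the 8 genes nearest in profile; a gene was read on its brightest probe set. The fitting script was tested on simulated data first. Alternatives were other scaling, pseudocounts, filters, variance settings, array weights, 1 value per gene, arrays left out and array number as a block.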

Additional observations from a re-analysis of the deposited data

Results flagged for a closer look

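For 3 genes the hypoxic arrays of one strain all lay on one side of their normoxic array and those of another strain all on the other side. The sign pattern itself was not tested. Its share over all probe sets is not given here, so whether it is unusual for these genes cannot be said. Limma's test of a difference between strains in the response passed for none of them (adjusted p of 0.316 and 0.393 for the Ms4a1 probe sets, 0.533 for Mzb1 and 0.729 for Blk). Ms4a1 1423226_at was -0.25 in BL6, with both hypoxic arrays lower, and 1.25 in FVB/N, with both higher. Ms4a1 1450912_at was -0.96 in BL6 and -0.69 in SV129, with all hypoxic arrays lower, and 0.42 in FVB/N, with both higher. Mzb1 was 0.64 in FVB/N and -0.34 in SV129. Blk was 0.20 in BL6 and 0.18 in FVB/N, and -0.40 in SV129. The FVB/N values rest on the normoxic array with kidney and brown fat transcripts. No member had a single outlying hypoxic array among 6 by Dixon's criterion. These 6 arrays span the strains, so strain differences widen the range and an array apart from its strain partner could be missed.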

How the results depend on the processing

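Jchain stayed lower in BL6 than in SV129, past the threshold, in all 22 other settings (log2 difference -2.78 to -2.00). Its difference between FVB/N and SV129 passed in 17 of 22, that of Fcer2a in 11 of 22. Of 1446 member values under other settings, 50 changed sign, none of them called, and 19 gained and 25 lost a call. Of the values of genes from the related lists, 346 kept their call and 102 lost it. For hypoxia over strains 0 member calls became 1 with a 60% filter and 1 with array weights (Jchain lower), and 0 remained the count with any array left out. Strain calls numbered 3, 8 with array weights, and 1 to 6 with single arrays left out (6 without the normoxic FVB/N array; 1 without the hypoxic FVB/N array 2 or either hypoxic SV129 array). Calls within strains numbered 2, 1 without the filter, 0 without the intensity trend and 4 with array weights. They numbered 0 to 4 with single arrays left out (0 without either hypoxic FVB/N array, 1 without either hypoxic BL6 array, 4 without the hypoxic SV129 array 2) and 0 with the kidney-marker arrays left out, where FVB/N cannot be estimated. Only the hypoxic BL6 and SV129 arrays 2 and 5 allowed a check of the array numbers, 1 of them an array with kidney markers, and it gave no sign of pairing (correlation of deviations -0.04). FVB/N was not in that check, and number 1 is every normoxic array, so the block is nested in condition. With the array number as a random replicate block, hypoxia over strains had 2 calls (Fcer2a higher, Jchain lower) and within strains 2. As a fixed replicate block in place of condition, strain calls fell to 1. Under median centring the higher share of all hypoxia calls was 71.3%, against 51.7%, and the median of all probe sets 0.11, against 0.04. The cause of these changes was not tested. With 1 normoxic array per strain, the comparisons within strains have 3 residual degrees of freedom.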
